A study of Mus musculus with 3 samples.

Results

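The core autophagy machinery was examined as 32 genes, chosen by symbol, of 55536 genes in the gene tables, 22015 of which are nuclear-encoded and protein-coding. The symbols were read from the identifiers of a transcript table, and the gene identifiers beside them were joined to the gene tables; all 32 matched. RNA came from the cytosolic fraction of bone-marrow-derived macrophages of C57BL/6J mice, cells that are grown from marrow precursors in culture. The cells carried no labelled mutation and had been exposed to 100 ng/ml Lipid A, the part of bacterial lipopolysaccharide that the TLR4 receptor senses, for 20 min. All 3 libraries belong to this 1 condition, with no unstimulated group analysed here, so the levels are those of Lipid A-treated cells and no effect of Lipid A was measured. The labels number the libraries as biological replicates 1, 2 and 3 but give all of them the same donor identifier, with age and sex not given. An SD over them measures only how far these samples differ, which may in part be technical. Any p-value likewise refers to these samples only, and does not measure their spread.

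Autophagy encloses cytoplasm, damaged organelles or microbes in a double membrane, the autophagosome, and delivers them to the lysosome. A kinase complex around ULK1 or ULK2 starts the process, a lipid kinase complex around Beclin 1 marks the membrane, and a pair of ubiquitin-like conjugation reactions then attaches proteins of the LC3 and GABARAP family to its lipid. Cargo receptors bind both ubiquitin or other tags and the LC3 and GABARAP proteins. In macrophages, many of the same proteins take part in the clearance of intracellular bacteria and in the conjugation of LC3 to phagosomes.

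Gene counts summed to 27282444, 81509889 and 37131774 in replicates 1, 2 and 3, and the smallest count of any of the 32 genes in a library was 131, for Atg10. TPM, an abundance of transcripts scaled by their length and to a fixed sum over all rows of a library, can be compared between genes. Nuclear protein-coding genes took only 25.0%, 22.0% and 19.6% of the TPM in replicates 1, 2 and 3, and the TPM of every mRNA moves with that share. Levels are therefore also given as rescaled TPM, in which the nuclear protein-coding genes of each library sum to the same total. All 6 macrophage markers were detected in each library, from Itgam at a lowest value of 17.6 TPM to Lyz2 (lysozyme) at a mean of 4579 ± 1025 TPM (SD, n = 3). All 13 markers of neutrophils, B cells, T cells and fibroblasts stayed below 1 TPM, the highest of each list being Mpo at 0.173, Cd79a at 0.0233, Lck at 0.0867 and Col1a1 at 0.0267 TPM in the mean. After rescaling, the neutrophil markers Mpo and Elane passed 1 in replicate 3, at 1.37 and 1.17, and the other markers stayed below 1 in each library.

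All 32 genes reached at least 1 TPM in each of the 3 libraries. The same held for 40.5% of nuclear protein-coding genes, and after rescaling for 32 of 32 against 47.4%. At a limit of 5 TPM, 21 of 32 genes were still detected in all libraries. The share of nuclear protein-coding genes that reach 5 TPM was not computed, so this count has no background beside it. Their median level of 7.60 TPM stood beside a median of 6.96 TPM over the detected nuclear protein-coding genes, and after rescaling the medians were 34.2 and 31.3. The machinery as a whole was thus detected throughout at a level near that of an ordinary detected gene. Summed, the 32 genes gave 648 ± 71.6 TPM, or 0.292% ± 0.00645 of nuclear protein-coding TPM (SD, n = 3). Gabarap alone supplied 35.1% ± 2.00 of that sum.

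**Figure D1:**
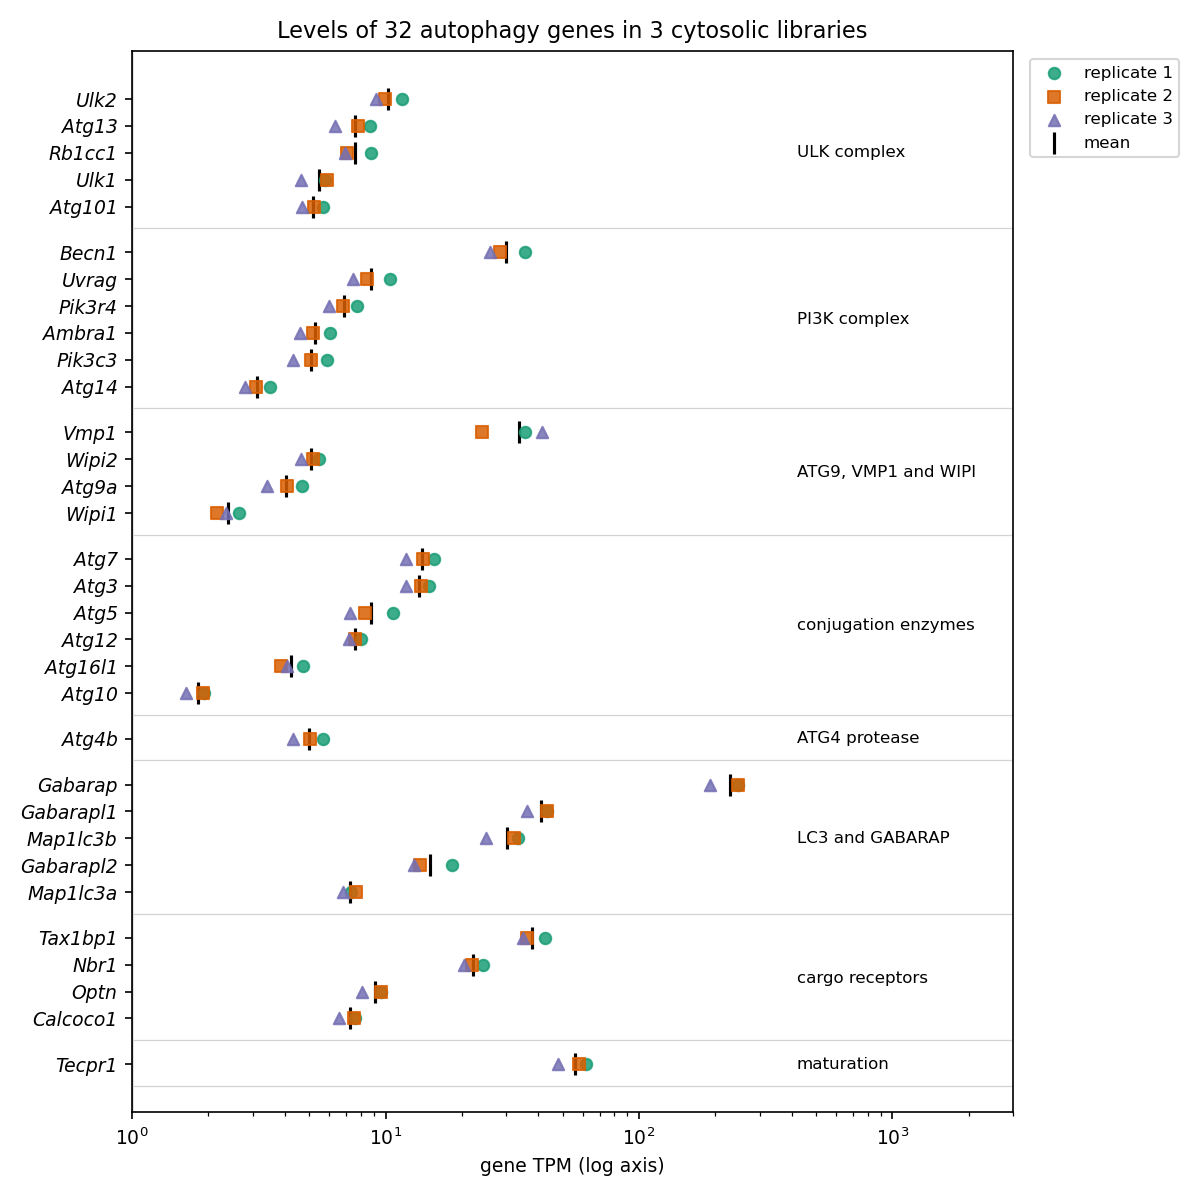
Level of each of the 32 genes in TPM (log axis), grouped by step, with a point for each library and a bar at the mean of 3. Gabarap, at a mean of 228 TPM, lies far to the right of the other genes, and Atg10, at 1.82 TPM, lies farthest left.

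The family of LC3 and GABARAP genes, the mammalian ATG8 proteins, had the highest summed level of any step. Newly made ATG8 proteins end in a short tail, and the protease ATG4 removes it to expose a glycine through which the protein is joined to phosphatidylethanolamine. The last 45 coding bases of each member are shown because they carry that glycine and are where the 5 members differ in tail length. They were read from the GENCODE M21 transcripts, lie in coding exon 4 of each gene, and run 5′ to 3′ up to the base before the stop codon, with the exposed glycine codon in capitals.
Map1lc3a: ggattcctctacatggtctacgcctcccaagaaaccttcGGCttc
Map1lc3b: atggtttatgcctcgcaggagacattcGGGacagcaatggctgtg
Gabarap: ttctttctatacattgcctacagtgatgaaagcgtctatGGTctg
Gabarapl1: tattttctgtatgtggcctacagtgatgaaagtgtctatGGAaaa
Gabarapl2: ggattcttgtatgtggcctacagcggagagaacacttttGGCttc

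In Map1lc3b 5 codons follow the glycine, and in each of the other 4 genes 1 codon does. The glycine is codon 120 of the LC3 genes Map1lc3a and Map1lc3b and codon 116 of the GABARAP genes Gabarap, Gabarapl1 and Gabarapl2. Over the aligned coding bases the LC3 pair was 77.6% identical and Gabarap and Gabarapl1 were 74.6% identical. The longest identical run between the whole transcripts of any 2 of the 5 genes was 17 bases, for Gabarap and Gabarapl1, so no stretch of 31 bases is shared between them.

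Gabarap (mm10 chr11:69991143-69994951, plus strand) had 247, 245 and 191 TPM in replicates 1, 2 and 3, from 11388, 36165 and 13596 counts. It was the highest of the 32 genes in each library, and 98.8% of detected nuclear protein-coding genes lay below it. Its rescaled levels of 990, 1114 and 971 put replicate 2 highest, where the TPM put replicates 1 and 2 level. Gabarapl1 (chr6:129533160-129542346), an ATG8 gene that is close to Gabarap in sequence, had 43.3, 43.2 and 36.1 TPM. Map1lc3b (chr8:121590361-121598760), which encodes the LC3 form most used as an autophagosome marker, had 33.2, 32.1 and 24.9 TPM. Gabarapl2 (chr8:111940703-111953612), the GABARAP form also known as GATE-16, had 18.3, 13.7 and 13.0 TPM, its highest value being in replicate 1. Map1lc3a (chr2:155276297-155278073) was the lowest of the family at 7.33, 7.63 and 6.82 TPM. The ranges of the 5 genes over the libraries did not overlap.

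Apart from the effect of the 0.1 TPM that is added before the log, ratios taken within a library do not move with the total that TPM is scaled to. Gabarap exceeded Gabarapl1 by 2.47 ± 0.06 on the log2 scale (SD, n = 3), a fold of 5.54. Against Gabarapl2 the log2 ratio was 3.92 ± 0.21, a fold of 15.1. Among the LC3 genes, Map1lc3b exceeded Map1lc3a by 2.02 ± 0.16, a fold of 4.07, and by 2.61 when only coding transcripts were counted. Summed over genes, the GABARAP subfamily exceeded the LC3 subfamily by 2.92 ± 0.01, a fold of 7.58, with values of 2.93, 2.92 and 2.91 in the 3 libraries. All of these folds were computed on log2(TPM + 0.1), and each had the same sign in 3 of 3 libraries. With 3 libraries the exact two-sided sign-flip permutation test cannot go below p = 0.25, which is the value it gave for every one of the 15 ratios computed here.

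**Figure D2:**
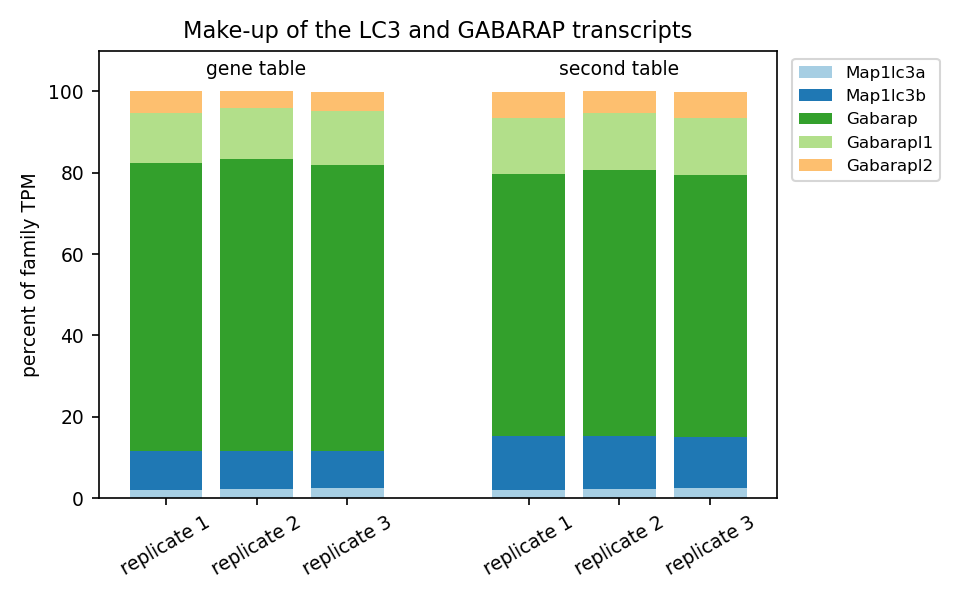
Share of the family's summed TPM taken by each of the 5 LC3 and GABARAP genes, as stacked bars for the 3 libraries in the gene table and in the second transcript table. Gabarap takes 70.2% to 71.7% of the bar in the gene table and 64.5% to 65.2% in the second table.

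Gabarap made up 70.9% ± 0.746 of the family's 321 ± 42.9 TPM. Shares of the other members were 12.8% ± 0.467 for Gabarapl1, 9.35% ± 0.168 for Map1lc3b, 4.68% ± 0.623 for Gabarapl2 and 2.28% ± 0.211 for Map1lc3a. The second transcript table, a separate quantification of the same libraries, kept this order, with 64.8% for Gabarap and 12.9% for Map1lc3b. Processed pseudogenes share sequence with some of these genes: of the stretches of 31 bases in the main coding transcript, 17.3% in Map1lc3b and 21.3% in Gabarapl2 occur in another gene, and 0% in Gabarap and Map1lc3a. The pseudogenes that shared most, Gm6055 with Map1lc3b and Gm3724 with Gabarapl2, held at most 18 and 9 counts in a library. In Gabarapl1, 19.5% of the stretches are shared with 1700101I11Rik, a transcript of the opposite strand with at most 41 counts.

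At the start of the pathway, the genes of the ULK complex had means from 5.19 to 10.2 TPM, on either side of the median of detected genes. Ulk2, one of the alternative kinases, had 11.6, 9.95 and 9.21 TPM. Ulk1, the other kinase, had 5.76, 5.90 and 4.65 TPM, below the lowest value of Ulk2. Within libraries Ulk1 stood at -0.90 ± 0.14 relative to Ulk2 on the log2 scale, a ratio of 0.535. Of the partners of these kinases, the adaptor Atg13 had a mean of 7.61 ± 1.18 TPM and Rb1cc1, which encodes the scaffold FIP200, 7.60 ± 1.04 TPM (SD, n = 3). Atg101, which stabilises ATG13, was lower at 5.19 ± 0.505 TPM. Of the Rb1cc1 stretches of 31 bases, 21.4% occur elsewhere, mostly in the pseudogene Gm13961, which had 0 counts in each library.

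In the lipid kinase complex, Becn1, which encodes the Beclin 1 scaffold, stood apart on gene-level TPM with 35.6, 28.2 and 25.9 TPM. That level was assigned mainly to transcripts that are not annotated as coding, an uncertain split that is set out further on. Uvrag, the subunit of the complex that acts at late endosomes, followed with 10.4, 8.45 and 7.42 TPM. Atg14, which replaces UVRAG in the form of the complex that builds autophagosomes, had 3.49, 3.08 and 2.80 TPM, and no value of Atg14 reached the lowest of Uvrag. The log2 ratio of Atg14 to Uvrag was -1.45 ± 0.09, a ratio of 0.366. It was wider at -2.04 in the second transcript table and -2.13 there after rescaling, and narrower at -1.28 on coding transcripts only. The second transcript table put 69.1% of the TPM of Uvrag in transcripts without a coding biotype, and 0.480% of that of Atg14. Pik3r4, the regulatory kinase-like subunit VPS15, had 6.83 ± 0.860 TPM, and Pik3c3, the catalytic subunit VPS34, had 5.09 ± 0.765 TPM. Their log2 ratio, Pik3c3 over Pik3r4, was -0.42 ± 0.04, but it turned to 0.39 when only coding transcripts were counted. Ambra1, a regulator that binds Beclin 1, had 5.27 ± 0.704 TPM.

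The genes of membrane supply and of the lipid-binding effectors lay below the median of detected genes, apart from Vmp1. Atg9a, the lipid scramblase that seeds the membrane, had 4.67, 4.07 and 3.41 TPM. A share of 48.1% of its stretches of 31 bases also belongs to Gm29253, an overlapping transcript on the same strand with 0, 211 and 61 counts, so reads of the 2 genes cannot be told apart there. Wipi2 and Wipi1 encode proteins that read the lipid made by VPS34. Wipi2 had 5.08 ± 0.411 TPM and Wipi1 2.39 ± 0.247 TPM, and the log2 ratio of Wipi1 to Wipi2 was -1.06 ± 0.14, a ratio of 0.480. Vmp1, a scramblase of the endoplasmic reticulum, was far higher than these at 33.6 ± 8.81 TPM and is described separately.

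Among the conjugation enzymes, the activating enzyme and the enzyme that hands over LC3 were highest. Atg7, the E1-like enzyme that serves both conjugation reactions, had 15.5, 14.1 and 12.0 TPM. Atg3, the E2-like enzyme for LC3 and GABARAP, had 14.8, 13.8 and 12.0 TPM. The values of Atg7 and Atg3 overlapped. Atg5 had 8.74 ± 1.78 TPM and Atg12, the ubiquitin-like protein joined to it, 7.58 ± 0.420 TPM. Their log2 ratio, Atg12 over Atg5, was -0.42, -0.12 and -0.02 in replicates 1, 2 and 3, so the mean of -0.19 was smaller than its SD of 0.21. Atg16l1, which binds the joined pair and directs it to the membrane, had 4.23 ± 0.448 TPM and stood at -1.02 ± 0.18 relative to Atg5. Atg10, the E2-like enzyme that joins ATG12 to ATG5, had 1.92, 1.91 and 1.63 TPM, the lowest of all 32 genes in every library. Atg4b, the protease that trims the tails shown above, had 5.69, 5.02 and 4.33 TPM.

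The cargo receptors spanned a wide range. Tax1bp1, a ubiquitin-binding receptor also known for damping inflammatory signalling, had 42.5, 36.0 and 35.0 TPM. Nbr1, a receptor for ubiquitinated proteins and peroxisomes, had 24.3, 22.0 and 20.4 TPM, below every value of Tax1bp1. Optn, which encodes optineurin, and Calcoco1, a receptor for endoplasmic reticulum and Golgi membrane, were lower at 9.11 ± 0.872 and 7.23 ± 0.582 TPM. Tecpr1, which takes part in the fusion of autophagosomes with lysosomes and binds damaged membranes, was the second most abundant of the 32 genes. It had 62.0, 58.2 and 47.9 TPM from 14785, 45664 and 17215 counts, and 93.4% of detected nuclear protein-coding genes lay below it.

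By step, the median level was 30.1 ± 4.50 TPM for the 5 LC3 and GABARAP genes, 15.7 ± 1.36 for the 4 cargo receptors, 8.16 ± 1.09 for the 6 conjugation enzymes, 7.35 ± 1.20 for the 5 ULK complex genes and 6.05 ± 0.782 for the 6 genes of the lipid kinase complex (SD, n = 3). Atg9a, Vmp1, Wipi1 and Wipi2 together had a median of 4.56 ± 0.519 TPM. The remaining steps are 1 gene each: Tecpr1 for maturation at 56.0 ± 7.33 TPM, above every median, and the protease Atg4b at 5.01 ± 0.680 TPM. Relative to the ULK complex within each library, the difference of median log2(TPM + 0.1) was 2.02 ± 0.13 for the LC3 and GABARAP genes and 0.95 ± 0.12 for the cargo receptors. It was smaller for the conjugation enzymes, at 0.15 ± 0.05, and below 0 for the lipid kinase complex, at -0.29 ± 0.05. Each difference had 1 sign in all 3 libraries, and rescaling, FPKM and the second transcript table kept the order of these 5 steps.

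Ordered by mean TPM, neighbours mostly could not be separated by their values. Of the 31 neighbouring pairs, 8 had ranges over the 3 libraries that did not overlap, and 12 on rescaled TPM. Separated on both scales were Gabarap from Tecpr1, Tecpr1 from Gabarapl1, Becn1 from Nbr1, Nbr1 from Gabarapl2, Atg3 from Ulk2, Pik3r4 from Ulk1, Atg14 from Wipi1, and Wipi1 from Atg10. From Gabarapl1 down to Becn1, the order of Gabarapl1, Tax1bp1, Vmp1, Map1lc3b and Becn1 was not resolved between neighbours. Nor were Ulk1, Ambra1, Atg101, Pik3c3, Wipi2 and Atg4b, whose means lay between 5.44 and 5.01 TPM.

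Between libraries the 32 genes moved little. On TPM, 29 of the 32 genes were highest in replicate 1, the library with the largest nuclear protein-coding share of TPM. After rescaling, the highest library was replicate 1 for 7 genes, replicate 2 for 13 and replicate 3 for 12. Detected genes as a whole were not counted in this way, so nothing particular to the 32 genes is read from these counts. The median ratio of highest to lowest library was 1.27 on TPM, beside 1.28 over detected nuclear protein-coding genes, and 1.10 beside 1.14 on rescaled TPM. On expected counts, edgeR gave the 32 genes a median coefficient of variation of 0.0829, beside 0.104 over 12430 genes fitted. The edgeR estimate for a gene is drawn toward those of other genes, so it is not that gene's observed spread. The steadiest on rescaled TPM was Pik3r4, at 30.8, 30.9 and 30.4.

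**Figure D3:**
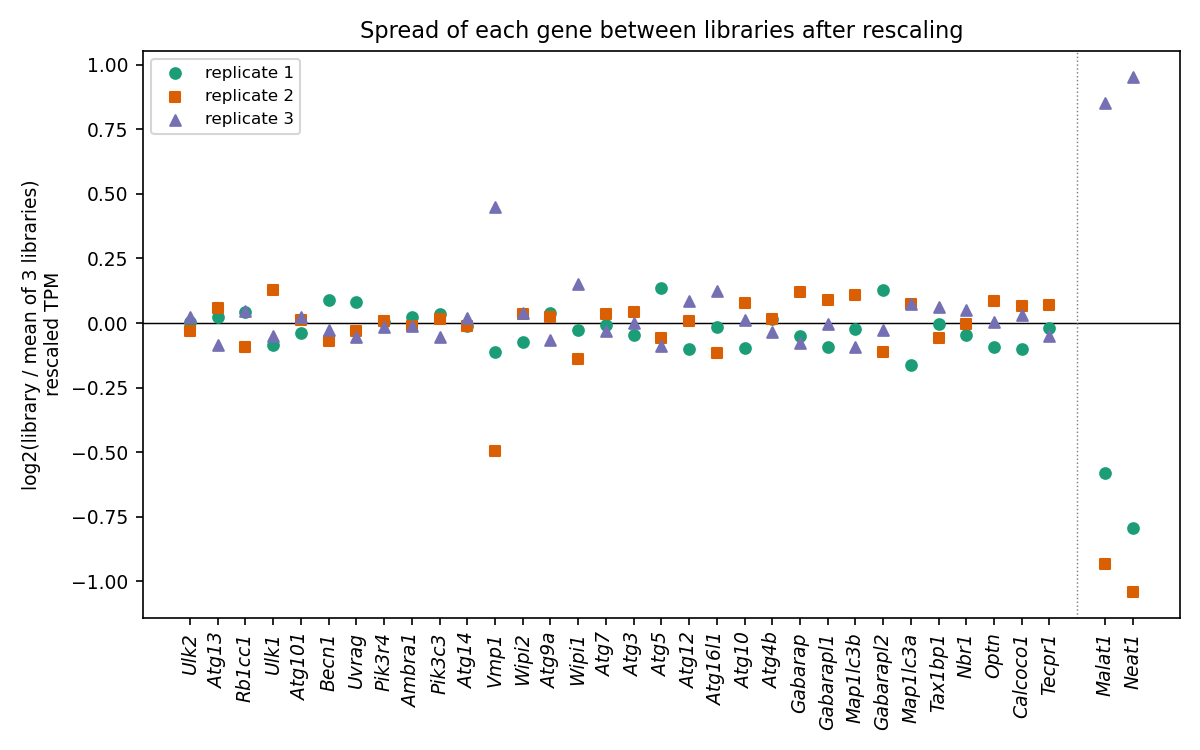
Rescaled TPM of each of the 32 genes, and of the nuclear RNAs Malat1 and Neat1, in each library, as the log2 ratio to the mean of the 3 libraries. Vmp1 spreads most of the 32 genes, with rescaled TPM of 142, 109 and 210 in replicates 1, 2 and 3, in the same order of libraries as Malat1 and Neat1. Wipi1, Atg16l1, Tax1bp1, Ulk2 and Rb1cc1 had that order too, over narrower ranges.

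Only Vmp1 had a highest library at least 1.5 times its lowest: 1 of 32 genes, on TPM as on rescaled TPM. Of detected nuclear protein-coding genes, 12.4% passed that ratio on TPM and 5.42% on rescaled TPM. Vmp1 (chr11:86583865-86683836, minus strand) had 35.5, 24.0 and 41.3 TPM from 2756, 6250 and 5556 counts, and 142, 109 and 210 rescaled. Replicate 3 was highest and replicate 2 lowest, while most of the other genes were highest in replicate 1 on TPM. Its coefficient of variation in the edgeR fit was 0.231, above that of 87.4% of the genes fitted. The observed SD of Vmp1 on rescaled TPM was larger, at 33.5% of its mean. Its highest library was 2.05 times its lowest on counts scaled to library size by TMM. On TPM, leaving out replicate 2 or replicate 3 brought the ratio of highest to lowest library below 1.5. On counts scaled by TMM, with 97.6, 76.2 and 156 in replicates 1, 2 and 3, it stayed above 1.5 without replicate 2.

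The RNAs Malat1 and Neat1, which are retained in the nucleus, differed between the libraries in the same order as Vmp1. That order was not particular to Vmp1 among the members. On rescaled TPM it was also seen, over narrower ranges, in others such as Wipi1 (10.6, 9.82 and 12.0) and Tax1bp1 (170, 164 and 178). Malat1 had 1439, 1127 and 3884 rescaled TPM and Neat1 had 127, 107 and 427 in replicates 1, 2 and 3. Whether nuclear RNA in the cytosolic fraction has a part in the spread of Vmp1 was not tested. By transcript, Vmp1-201, the full coding form of 12 exons, made up 52.4% ± 3.23 of the TPM of Vmp1. Vmp1-206, a form of 2 exons and 931 bases annotated as a processed transcript, took 36.8%, 20.8% and 35.3% in replicates 1, 2 and 3. The coding transcripts of Vmp1 alone gave 21.1, 16.3 and 24.4 TPM, in the same order of libraries.

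The last exon of Vmp1-201, exon 12 (chr11:86583865-86585451), also holds the hairpin of microRNA miR-21a (chr11:86584067-86584158), on the same strand and outside the coding part. The mature microRNAs of this hairpin are shown because their precursor overlaps the exon that contributes to the counts of Vmp1. They are from RefSeq on GRCm38.p6, 5′ to 3′, with bases 2 to 8, the seed, in capitals.
mmu-miR-21a-5p: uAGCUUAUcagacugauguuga
mmu-miR-21a-3p: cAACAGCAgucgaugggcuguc

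The Mir21a row itself held 0 counts in all 3 libraries. The longer precursor of miR-21a and the last exon of Vmp1 cannot be told apart in gene counts where they overlap. The level of miR-21a was not measured by these libraries.

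Each gene's TPM is a sum over annotated transcripts, some of which carry biotypes other than protein coding: retained intron, nonsense-mediated decay (a transcript whose early stop marks it for degradation) and processed transcript. Over the 32 genes the median share of TPM in such transcripts was 4.02%, beside 2.42% over detected nuclear protein-coding genes. In 12 of the 32 genes the share was under 5% in all libraries, and Atg101, Pik3c3, Atg14, Wipi1 and Gabarapl1 had 0% in the first transcript table. The other 27 genes had some such TPM, as did 7007 of 8910 detected nuclear protein-coding genes. How many detected genes were under 5% in all libraries was not counted. Becn1 was the 1 gene of 32 with more than 50% in all libraries, where 3.33% of detected nuclear protein-coding genes were past that share.

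**Figure D4:**
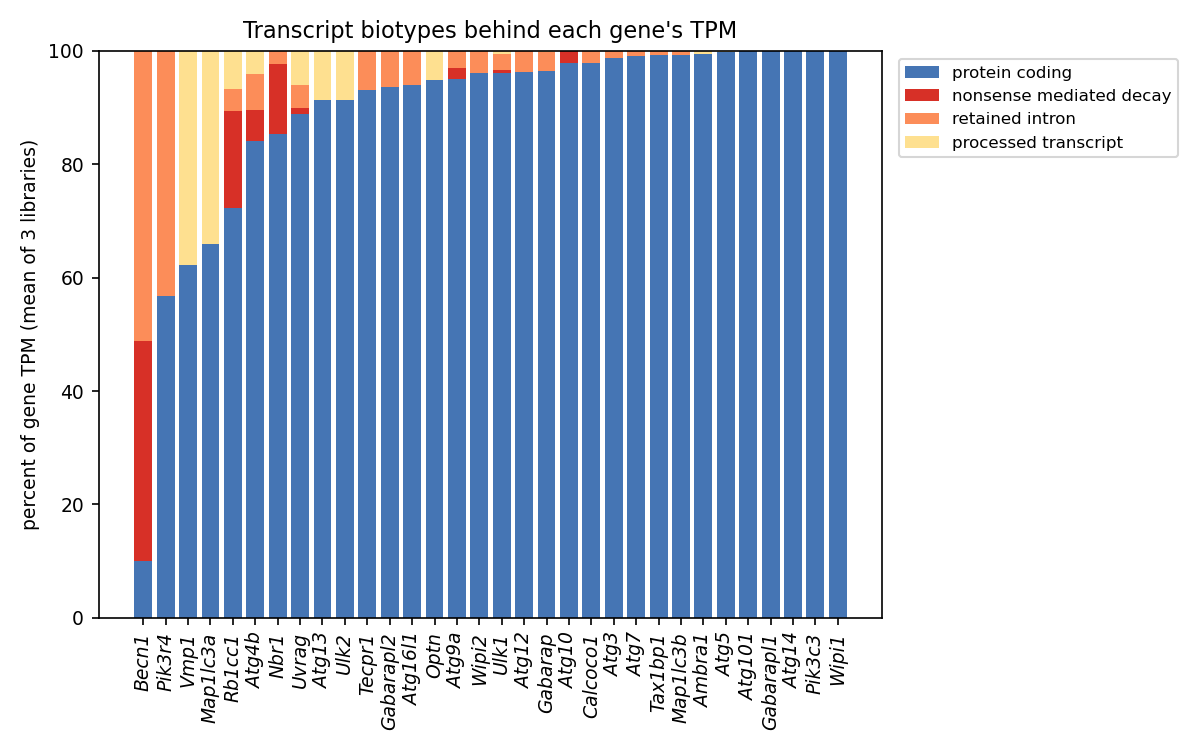
Share of each gene's TPM by transcript biotype, mean of 3 libraries, as stacked bars ordered by the protein-coding share. Becn1 stands first with 89.9% outside the coding biotype, followed by Pik3r4 at 43.3%, Vmp1 at 37.8% and Map1lc3a at 34.1%.

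For Becn1 (chr11:101285952-101302286, minus strand), 91.1%, 87.9% and 90.6% of TPM lay in transcripts without a coding biotype. The largest, Becn1-211, is a retained-intron model of 487 bases and took 46.5% ± 3.76 of the TPM from 229, 600 and 234 counts. Becn1-201 and Becn1-215, both annotated as subject to nonsense-mediated decay, took 27.6% ± 1.18 and 10.6% ± 1.59. Becn1-205, a coding model of 4365 bases, took 9.52% ± 2.11. By expected counts, which are not divided by length, the share without a coding biotype was 67.7% ± 5.08, and in the second transcript table it was 95.1% ± 1.04 of TPM. Counting coding transcripts only, Becn1 had 3.16, 3.42 and 2.44 TPM and moved from rank 7 to rank 30 of the 32 genes. Apart from a few bases at an end of its first exon, Becn1-211 lies within exons of Becn1-205. Becn1-201 and Becn1-215 also lie mostly within those exons. Many reads therefore fit several of these models, and the split between biotypes, and with it the coding-only rank, is an uncertain estimate. Of the 31-base stretches of Becn1-205, 48.1% also belong to Cntd1, a gene on the opposite strand with 0, 5 and 2 counts, and because no source used here states the strand of the reads, those of both genes cannot be told apart there.

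Pik3r4 was next, with 49.4%, 39.4% and 41.1% of TPM outside the coding biotype. Its retained-intron model Pik3r4-211, of 1358 bases, took 30.4% ± 4.85, but 5.12% ± 5.97 in the second transcript table. Coding transcripts of Pik3r4 gave 3.85 ± 0.308 TPM, below the 5.09 ± 0.765 TPM of Pik3c3. In Map1lc3a the share was 34.1% ± 1.85, all of it in the processed transcript Map1lc3a-203, and in Rb1cc1 it was 27.7% ± 5.47. Atg4b with 15.9%, Nbr1 with 14.7% and Uvrag with 11.1% followed in the first table. The tables diverged most for Uvrag, where the second put 69.1% ± 3.13 of TPM outside the coding biotype, so that 2 of the 32 genes, Becn1 and Uvrag, passed 50% there. Between the first and second tables the share of Gabarapl2 went from 6.44% to 35.9% and that of Ulk2 from 8.64% to 29.9%, and these shares are uncertain to that extent.

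The share of TPM outside the coding biotype was highest in replicate 3 for 17 of the 27 genes that had any. Over detected nuclear protein-coding genes with any such TPM, 56.9% were highest there. Its median over the 32 genes was 2.16%, 3.60% and 6.55% in replicates 1, 2 and 3, beside 1.75%, 1.74% and 3.05% over detected genes. Replicate 3 is also the library with the most Malat1 and Neat1, and a part of that RNA in these shares was not tested.

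For lysosome and autophagy genes, the factors TFEB, TFE3 and MITF are known to bind E-boxes, so the promoters of the members were searched for CACGTG, which reads the same on both strands. Of the 32 genes, 26 had a window in the RefSeq promoter table, which runs from 250 bases before to 50 bases after a start site, and 4 of these held the motif: Atg14, Atg3, Atg5 and Atg7. The others of the 32, without a window, were Atg16l1, Becn1, Rb1cc1, Map1lc3a, Pik3c3 and Atg12. Of all 27025 genes with a window, 8.09% held the motif. In GENCODE M21, Atg7 starts at chr6:114643097 and Atg14, on the minus strand, at chr14:47570649. Their windows with the motif therefore lie inside the annotated genes, at other start sites. The windows are shown around the first motif, in capitals, on the strand of the gene and on GRCm38.p6, to give the bases that flank it.
Atg14 (chr14:47568410-47568455): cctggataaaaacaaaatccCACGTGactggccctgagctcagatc
Atg3 (chr16:45158715-45158760): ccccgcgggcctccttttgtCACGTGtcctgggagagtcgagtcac
Atg5 (chr10:44268305-44268350): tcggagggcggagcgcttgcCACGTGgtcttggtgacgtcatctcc
Atg7 (chr6:114670944-114670989): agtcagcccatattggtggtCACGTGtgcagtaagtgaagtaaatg

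The extended motif TCACGTGA, which contains CACGTG, was present in 1 gene, Atg3, and in 1.12% of all genes. The Atg3 window held 2 copies of CACGTG, and the copy shown above is not the one in the extended motif. GTCACGTG, on either strand, was present in Atg14, Atg3 and Atg7 and in 2.55% of all genes. Between the 4 genes with the motif, mean levels ranged from 3.12 TPM for Atg14 to 13.9 TPM for Atg7. These matches describe letters in a window; binding was not measured.

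Other genes of the pathway were taken from a list of 39 relatives of the members. Of these, 37 reached 1 TPM in all libraries, and 38 after rescaling. Sqstm1, which encodes the receptor p62, had 135, 122 and 112 TPM, above every member but Gabarap. Ncoa4, the receptor for ferritin, had 140 ± 17.7 TPM. In the fusion step, the small GTPase Rab7 had 134 ± 17.8 TPM and the SNARE Vamp8 64.5 ± 15.0 TPM. Sh3glb1, which binds UVRAG and bends membranes, had 78.4 ± 14.9 TPM, while Ei24, of the endoplasmic reticulum, had 12.8 ± 1.34 TPM.

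Close relatives of members lay on either side of them. Atg9b had 0.300, 0.600 and 0.320 TPM, below every value of Atg9a. Calcoco2, which encodes the receptor NDP52, had 0 counts in all 3 libraries, which allows up to 0.110, 0.0368 and 0.0808 CPM (counts scaled to library size) by counting error alone, and its relatives Calcoco1 and Tax1bp1 were both detected. Atg4c, another ATG4 protease, had 5.34 ± 0.848 TPM, within 1 SD of the 5.01 ± 0.680 TPM of Atg4b. Wdr45b, a relative of the WIPI genes, had 10.4 ± 1.19 TPM, above every value of Wipi1 and Wipi2. Of the transcription factors on the list, Tfe3 had 25.1 ± 3.53 TPM and Foxo3 19.3 ± 1.71 TPM. In bulk RNA such as this, fewer cells with a transcript and less of it in each cell cannot be told apart.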

How the data were processed

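Total RNA of the cytosolic fraction was sequenced after removal of ribosomal RNA, per the labels. The authors deposited, for each of the 3 libraries, 1 table of genes and 2 of transcripts (the first and the second transcript table), on mm10 with GENCODE M21, per the file headers and notes; for aligner, counter and strandedness, nothing is stated there (not given in the sources used here). Expected counts, as deposited, estimate the reads of a gene and can be fractional. TPM values, as deposited, are scaled by length and to a fixed sum in each library, and FPKM values, as deposited, by length and depth. Abundant short RNAs thus lower the TPM of every mRNA, and reads shared by similar genes are split by the estimate. The second table was summed to genes.

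Rows that name no gene, 0.402%, 0.108% and 0.122% of counts in replicates 1, 2 and 3, were left out of library sizes. For the spread between libraries, expected counts were rounded, kept at a minimum count of 10 (filterByExpr) and normalised by TMM (factors 1.04, 1.01 and 0.959) before edgeR 4.0.16 estimated dispersions with an intercept only in R 4.3.3; the coefficient of variation is the square root of the tagwise dispersion. This step was tested on simulated data in which all genes shared a common spread. The check was on the median over genes, so the estimates for single genes were not checked by it. DESeq2 1.42.0 was an alternative. Within-library ratios used a pseudocount of 0.1 TPM and an exact two-sided sign-flip test. Detection meant 1 TPM in all libraries, and 3 counts were taken as the limit that a count of 0 allows; that limit covers counting error only.

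With 1 condition there is no comparison between groups. The members, steps, relatives and markers were chosen with earlier results of these data known. All 32 members are named; of the relatives, Sqstm1, the 2 highest of each list and those below 1 TPM, and of each marker list the highest gene. Malat1 and Neat1 were added as nuclear RNAs. Alternatives were FPKM, the posterior mean TPM, rescaled TPM, the second table, other pseudocounts and limits of detection, other normalisations and filters, a larger fold and leaving out each library. The second table after rescaling, coding transcripts only and shares of counts were added after seeing the data.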

Additional observations from a re-analysis of the deposited data

How the results depend on the processing

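No paired analysis was possible because there is 1 group. All 32 genes were detected under each alternative but 2: at a limit of 5 TPM 21 were, and in the second table without rescaling 29 were, with Atg10, Atg14 and Wipi1 below 1 in at least 1 library. The median level of 7.60 TPM was 15.1 as FPKM, 3.25 in the second table, 34.2 after rescaling and 37.3 in the second table after rescaling, each on a scale of its own. Of the 15 within-library ratios, all kept their sign under every alternative but one: Pik3c3 over Pik3r4 turned from -0.42 to 0.39 on coding transcripts only. The count of genes at least 1.5 times higher in one library than in another was 1. It was 16 in the second table without rescaling, 1 there after rescaling, 0 at 2-fold, and 0 to 1 when each library was left out. The share of all detected genes past 1.5-fold in the second table was not computed, so nothing particular to the members is read from the 16. Nuclear protein-coding genes took 10.5%, 8.92% and 6.71% of TPM there in replicates 1, 2 and 3. The median coefficient of variation, 0.0829, was 0.0989 without normalisation beyond library size, 0.0891 without a count filter, 0.0755 with DESeq2, and 0.0872 to 0.0954 with each library left out. The median share of TPM outside the coding biotype, 4.02%, was 6.63% in the second table and 1.58% by counts. The cause of these shifts was not tested. Short models such as Becn1-211 turn few counts into much TPM. Their levels rest on the division by length and on how reads of shared exons are split between models. Of the single genes' levels under alternatives, 9 differed from the reported mean by more than 1 SD, among them Becn1 at 3.01 TPM on coding transcripts only.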
